A study of Homo sapiens with 8 samples.

Results

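Transcript levels of 10 genes (SLA, APLNR, CMKLR1, PRR9, TMEM132C, SMPD3, GRIA1, MYT1, PTPRZ1 and IGFBP7) were followed by RNA-seq in RKO and SW480, both established lines from human colon cancers. The genes were chosen from a table of 16829 genes by 2 readouts of these same libraries, a strong difference in SW480 between knockdown of CYP1B1 by a hairpin (shCYP1B1) and its hairpin control, labelled shNT, and low or absent counts in RKO. Their SW480 differences and their low RKO levels are therefore given as a description, without a test. The other groups were RKO control cells and RKO cells with CYP1B1 overexpression, and each of the 4 groups held 2 libraries. All cells were grown in DMEM with serum and antibiotics and are labelled as treated with lentivirus, the labels state no age or genotype beyond the CYP1B1 manipulation, and the knockdown rests on 1 hairpin label, so effects off the target cannot be told apart from those of CYP1B1. Whether replicates came from separate cultures is not stated, and the p-values below rest on a spread between libraries that may be technical.

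The 8 libraries held 31550173 to 34921085 counts, and 14157 genes had enough counts to be tested. CYP1B1, the targeted cytochrome P450 gene, had 50 and 76 counts in the shNT libraries and 12 and 10 in the shCYP1B1 libraries, and 22 and 24 counts in the RKO controls and 15238 and 17360 with overexpression. The overexpression libraries stood apart from each other more than any other pair (chi-square per gene 42.7, compared with 4.65 to 6.53). In bulk RNA, fewer cells with a transcript and less transcript per cell cannot be told apart. Of the epithelial markers, KRT8 and KRT18 were present in both lines, EPCAM stood at 131 ± 0.336 CPM in shNT, 22.9 ± 0.577 in shCYP1B1 and under 2 in each RKO library (SD, n = 2), and KRT20 and CDX1 were at or near 0 in all groups. Of 7 intestinal epithelial markers tested in SW480, 2 rose and 4 fell (median log2 fold change -0.86, edgeR), where 25.3% of all genes tested rose and 25.3% fell. EPCAM fell by 2.52 (SE 0.09), VIL1 fell by 3.19 (SE 0.31), KRT19 fell by 0.92 (SE 0.13) and CDX2 fell by 0.86 (SE 0.09), KRT8 and KRT18 rose by 0.26 and 0.27 (SE 0.07 and 0.06), and CDH1 stood at 6.28 ± 0.430 and 9.43 ± 0.707 CPM (adjusted p = 0.0552).

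The 10 genes belong to signalling systems that are studied mostly outside the colon epithelium. APLNR and CMKLR1 encode G protein-coupled receptors for the secreted peptides apelin and chemerin, SLA an adaptor that restrains Src-family and ZAP70/SYK signalling in lymphocytes, and SMPD3 the neutral sphingomyelinase that releases ceramide from sphingomyelin. GRIA1 is a subunit of AMPA-type glutamate receptors, PTPRZ1 a receptor tyrosine phosphatase of glia that binds pleiotrophin and midkine, and MYT1 a zinc finger transcription factor of neural development, distinct from the kinase gene PKMYT1. IGFBP7 encodes a secreted protein related to the insulin-like growth factor binding proteins, PRR9 lies among the genes of the epidermal differentiation complex, and TMEM132C encodes a single-pass membrane protein of a neural family.

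In SW480, 8 of the 10 genes stood higher with the CYP1B1 hairpin and 2, MYT1 and PTPRZ1, stood lower. The genes were chosen for this contrast, so the separation of their libraries in it carries no weight. In RKO none exceeded 8 counts in any library. The name "near-silent" held for some of them only. The 6 genes SLA, APLNR, CMKLR1, TMEM132C, SMPD3 and GRIA1 had means under 1 CPM (counts per 1e6 counts, by TMM-scaled library size) in shNT and at least 5 CPM in shCYP1B1, and MYT1 had the opposite pattern. PRR9 was already at 3.09 ± 0.153 CPM and IGFBP7 at 28.8 ± 3.42 CPM in shNT, and PTPRZ1 was still at 1.89 CPM in both shCYP1B1 libraries. All 10 passed the filter on low counts, and each did so through SW480 libraries, so their passing carries no weight of its own.

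**Figure D1:**
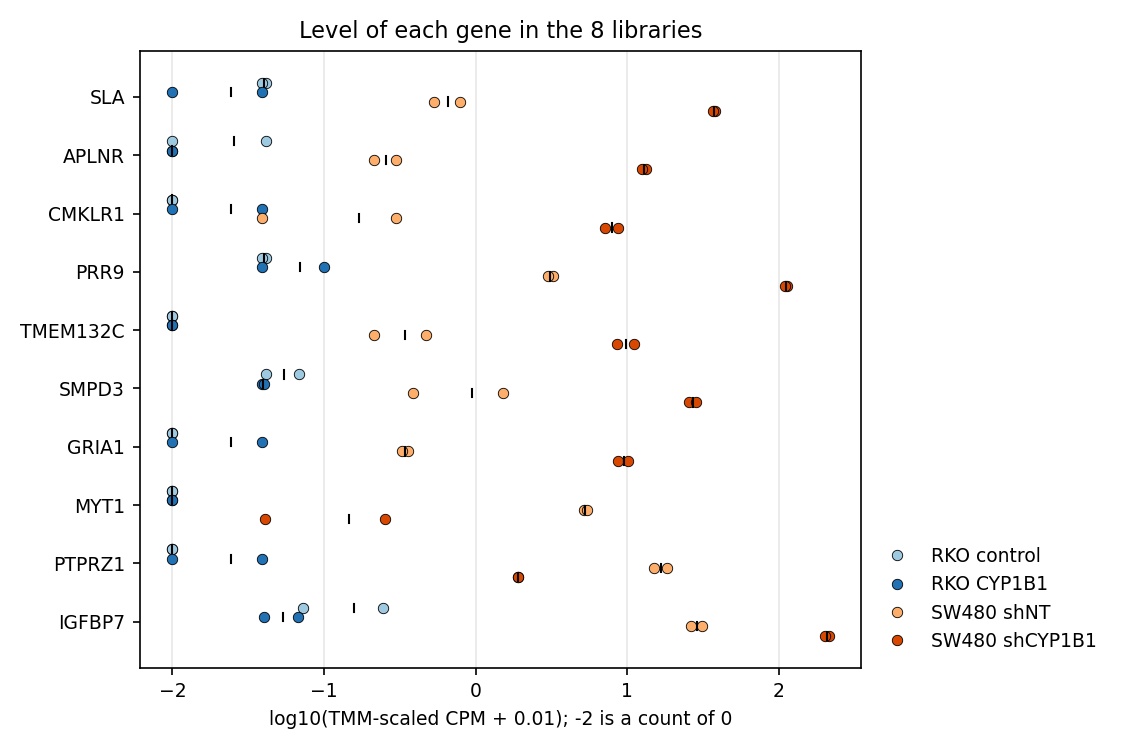
Level of each of the 10 genes in every library, as log10 of TMM-scaled CPM plus 0.01, with 1 point per library, colours for the 4 groups and a black tick at the group mean. RKO points lie at the left for every gene (at most 8 counts), and the shCYP1B1 points lie to the right of the shNT points except for MYT1 and PTPRZ1.

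Both receptor genes were near the counting floor in shNT and well measured in shCYP1B1. APLNR had 7 and 10 counts in the shNT libraries and 435 and 414 in the shCYP1B1 libraries, or 0.202 and 0.290 CPM compared with 13.3 and 12.4 CPM. The ratio of summed counts, scaled by library size, was 52.4 (95% exact interval 32.5 to 90.3). These intervals, here and below, cover counting error only and leave out the spread between libraries. The genes were chosen for large differences in these same libraries, so the ratios may be too high, and the intervals are no test. CMKLR1 had 1 and 10 counts in shNT and 233 and 287 in shCYP1B1, a ratio of 49.6 (27.5 to 99.9). Its shNT libraries differed, and the fitted log2 fold change was 5.60, 4.76 without shNT replicate 1 and 7.92 without shNT replicate 2, the last resting on 1 count. In RKO, 1 count of APLNR and 1 of CMKLR1 were seen in all 4 libraries together.

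SLA had the largest count among the genes that began below 1 CPM. It stood at 18 and 27 counts in shNT and at 1243 and 1215 counts in shCYP1B1, which is 0.519 and 0.782 CPM compared with 38.0 and 36.5 CPM, a ratio of 57.3 (42.7 to 78.7). SMPD3 had 52 and 13 counts in shNT and 838 and 950 in shCYP1B1, a ratio of 28.8 (22.5 to 37.5). The shNT libraries disagreed for SMPD3 by 3.98 times, and its log2 fold change of 4.84 became 6.16 without shNT replicate 1 and 4.18 without shNT replicate 2. The direction was the same in each case.

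GRIA1 and TMEM132C, both of neural families, had nearly the same profile. GRIA1 went from 12 and 11 counts in shNT to 285 and 338 in shCYP1B1, or from 0.333 ± 0.0193 to 9.44 ± 1.03 CPM (SD, n = 2), a ratio of 28.4 (18.8 to 45.1). TMEM132C had 16 and 7 counts in shNT and 281 and 369 in shCYP1B1, a ratio of 29.6 (19.6 to 47.1), and 0 counts in every RKO library. A count of 0 allows up to 3 counts per library. The log2 fold change of TMEM132C was 4.87, and 5.58 without shNT replicate 1.

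PRR9 and IGFBP7 were the most abundant of the 10 genes after knockdown, and both were well measured before it. PRR9 had 111 and 103 counts in shNT and 3697 and 3627 in shCYP1B1, and its ratio of 35.9 had the interval 31.3 to 41.3. IGFBP7 had 1082 and 910 counts in shNT and 6949 and 6689 in shCYP1B1, a ratio of 7.18 (6.85 to 7.53). Per length, IGFBP7 stood at 129 and 122 FPKM (counts scaled by gene length and library total) and PRR9 at 89.3 and 86.1 FPKM in the shCYP1B1 libraries. SLA followed at 11.7 and 11.2 FPKM. APLNR, CMKLR1, TMEM132C, SMPD3 and GRIA1 had group means between 1.36 and 3.68 FPKM.

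The genes that stood lower after knockdown differed in what remained. MYT1 had 178 and 186 counts in shNT and 1 and 8 in shCYP1B1, so that shNT was 38.6 times higher (20.1 to 85.1). The shCYP1B1 libraries differ at this depth: the log2 fold change of -5.23 was -4.42 without shCYP1B1 replicate 1 and -7.26 without shCYP1B1 replicate 2, the latter resting on 1 count. PTPRZ1 had 631 and 515 counts in shNT and 62 and 63 in shCYP1B1, so that shNT was 8.75 times higher (7.27 to 10.6), and the remaining level was the same in both libraries. Per length, MYT1 was at 0.917 and 0.968 FPKM and PTPRZ1 at 3.21 and 2.65 FPKM in shNT.

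**Figure D2:**
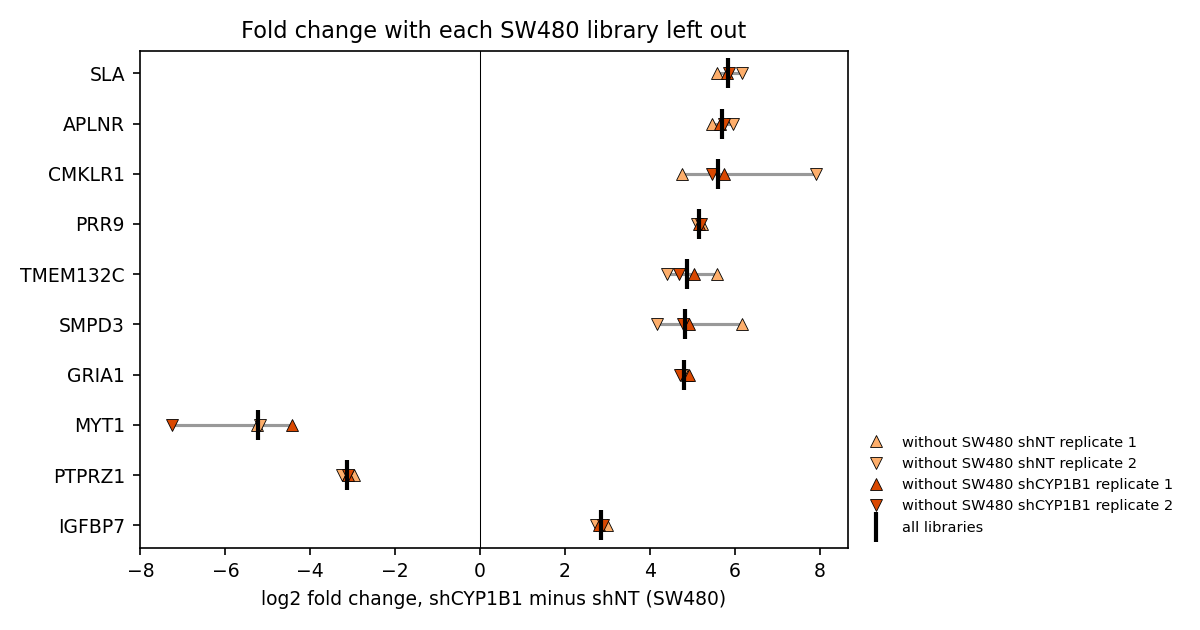
Fitted log2 fold change of each gene in SW480 (shCYP1B1 minus shNT) with all 8 libraries (black bar) and with each SW480 library left out in turn (triangles). CMKLR1 ranges from 4.76 to 7.92 and MYT1 from -7.26 to -4.42, while PRR9 stays between 5.12 and 5.23 and IGFBP7 between 2.73 and 2.98.

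Among the 14157 genes tested, the 7 of the set with the largest positive values held ranks 11, 12, 13, 19, 25, 26 and 28 by log2 fold change in SW480, in the order SLA, APLNR, CMKLR1, PRR9, TMEM132C, SMPD3 and GRIA1. IGFBP7 held rank 166. MYT1 was the 18th from the bottom and PTPRZ1 the 126th. As a background without a test, 0.939% of genes tested stood more than 8 times higher and 0.932% more than 8 times lower in shCYP1B1. Over all genes in the file, 21 went from a mean under 1 CPM in shNT to at least 5 CPM in shCYP1B1, and the 6 named above are among them. SLA and SMPD3 had the highest and the next highest final level of the 21. The opposite switch was seen for 13 genes, among which MYT1 had the lowest remaining level.

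These class sizes depend on the limits chosen. With a low limit of 0.5 CPM, 9 genes switched on and 2 off, and SLA and SMPD3 left the class. With a high limit of 2 CPM the numbers were 125 and 90. With the same limits on FPKM, 10 genes switched on and 7 off, and SLA was the only 1 of the 10 genes left in either class. Without shNT replicate 2, SMPD3 also left the class.

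**Figure D3:**
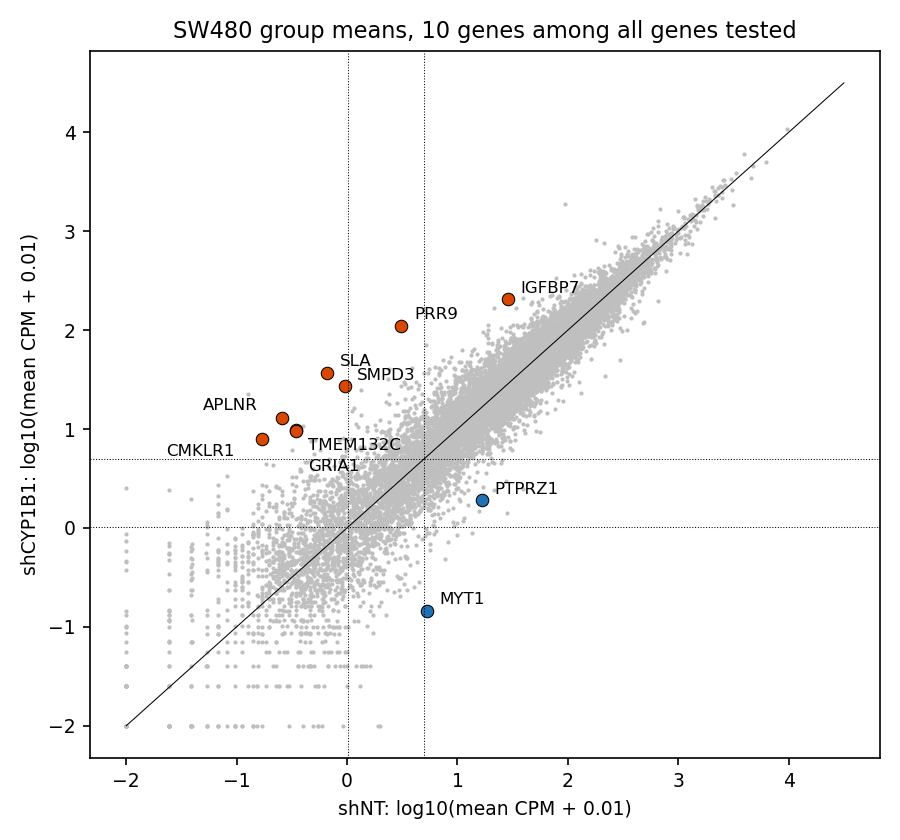
Mean level of every gene tested in SW480, shNT on the x axis and shCYP1B1 on the y axis, as log10 of CPM plus 0.01, with dotted lines at 1 and 5 CPM and the diagonal. The 8 genes in orange lie above the diagonal and MYT1 and PTPRZ1 in blue lie below it, and other genes lie farther from it. PRR9, IGFBP7 and PTPRZ1 lie outside the boxes for genes that switched between under 1 and at least 5 CPM.

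CYP1B1 overexpression was compared with control in RKO, but the 10 genes were chosen as low or absent there and entered the fit through SW480, so the outcome of a test on them was set by that choice and nothing is read from it. For the record, 0 of the 10 passed (edgeR quasi-likelihood test, adjusted p threshold of 0.05 over 14157 genes; 27.6% of all genes tested were called) and 0 had an unadjusted p under 0.05 (38.4% of all genes), and DESeq2 and limma called 0. IGFBP7 had the most, 2 and 8 counts in the controls and 2 and 1 with overexpression, a ratio of 0.291 (0.0515 to 1.13, adjusted p = 0.158). PRR9 had 1 and 1 counts in the controls and 1 and 3 with overexpression, SMPD3 had 1, 2, 1 and 1, and SLA 1, 1, 1 and 0. MYT1 and TMEM132C had 0 counts in all 4 libraries, and APLNR, CMKLR1, GRIA1 and PTPRZ1 had 1 count in total each. With at most 3 counts per library for these 9 genes, a fall in RKO was not detectable at this depth. None of the 10 genes had more than 3 counts in a library with CYP1B1 overexpression.

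For 6 of the 10 genes RefSeq (GRCh38.p14) gives the sequence before an annotated start, in 7 windows of 250 bases. Those of 3 genes are printed here. The PRR9 and PTPRZ1 windows lie at the 5′ end of the gene's span in GENCODE release 29. Those of CMKLR1, GRIA1, MYT1 and TMEM132C lie inside the span, before internal starts, so the windows are not alike in kind. Motif matches on either strand are in capitals; bases that GENCODE release 29 places in an exon of the gene are left out at the 3′ end.

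PRR9 (chr1:153217334-153217583, plus strand): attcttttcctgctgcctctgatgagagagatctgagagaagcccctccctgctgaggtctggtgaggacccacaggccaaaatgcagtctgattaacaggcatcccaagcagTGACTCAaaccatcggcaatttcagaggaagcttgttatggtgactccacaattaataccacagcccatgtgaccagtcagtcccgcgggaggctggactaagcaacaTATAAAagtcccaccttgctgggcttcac

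CMKLR1 (chr12:108320663-108320892, minus strand): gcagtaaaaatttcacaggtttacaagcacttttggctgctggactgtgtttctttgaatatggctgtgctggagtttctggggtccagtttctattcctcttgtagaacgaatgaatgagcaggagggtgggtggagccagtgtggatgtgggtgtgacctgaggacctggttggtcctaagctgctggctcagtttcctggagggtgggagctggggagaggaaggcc

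PTPRZ1 (chr7:121872911-121873088, plus strand): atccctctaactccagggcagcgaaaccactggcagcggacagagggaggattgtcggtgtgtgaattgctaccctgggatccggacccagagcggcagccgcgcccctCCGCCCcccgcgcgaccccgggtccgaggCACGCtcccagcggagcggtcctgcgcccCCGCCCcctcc

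The PRR9 window holds TATAAA from 29 to 24 bases before the start and the AP-1 sequence TGACTCA from 137 to 131 bases before it. The latter was searched as TGANTCA, with any base at N. TATAAA occurs in 10.7% and TGANTCA in 6.57% of all 35116 such windows. The CMKLR1 window holds none of the 6 motifs searched, which were these 2, TGACGTCA, CACGTG, the core bound by the aryl hydrocarbon receptor (GCGTG) and the GC box (GGGCGG). The PTPRZ1 window holds 2 GC boxes and 1 GCGTG, which occur in 42.6% and 32.2% of windows. TGACGTCA occurs in 1.65% and CACGTG in 6.34% of windows, and in none of the 7. The PTPRZ1 window had 29 CpG dinucleotides and a GC content of 73.2%. CMKLR1 had 1, MYT1 2, PRR9 3, the GRIA1 windows 7 and 5, and TMEM132C 11, compared with a median of 11 over all windows and 19 over the windows of genes tested. MYT1 also held 1 match to the loose pattern TGANTCA, with the letters TGAATCA, and TMEM132C 1 GCGTG. The RNA counts do not show which start was used.

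The genes lie on 9 chromosomes (GRCh38, GENCODE release 29). CMKLR1 (12:108288044 to 108339341, minus strand) and TMEM132C (12:128267403 to 128707915, plus strand) share chromosome 12. SLA (8:133036724 to 133103054, minus strand) lies inside the span of the thyroglobulin gene TG on the plus strand. Minus-strand genes are also APLNR (11:57233577 to 57237314), IGFBP7 (4:57030773 to 57110385) and SMPD3 (16:68358325 to 68448688). Plus-strand genes are GRIA1 (5:153489615 to 153813869), MYT1 (20:64102394 to 64242253) and PTPRZ1 (7:121873089 to 122062036). PRR9 (1:153217584 to 153219317, plus strand) is the shortest of the 10 genes, with 1734 bp.

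The nearest protein-coding genes of the table, 2 on each side and any that overlap, were not used by the choice of the 10 genes. Of 33 such neighbours that could be tested, 14 rose and 8 fell in SW480 (66.7% called, where 50.6% of all genes tested were called). Nearest does not mean close: 15 of the 33 lay within 100 kb, of which 11 were called, and CENPC lay 10360 kb from IGFBP7. Of the 22 called neighbours, 13 moved in the direction of the gene beside them and 9 in the other. Of the 33 tested, 7 (21.2%) were called and differed by more than 2-fold, where the background was 13.5%, and these 7 are among the 13. TG rose from 80 and 84 counts to 730 and 766 (log2 fold change 3.26, SE 0.25, adjusted p = 2.20e-06, edgeR), and in RKO it had at most 7 counts. TG and SLA lie on opposite strands and the counting is not stated to use strand, so reads of one may be counted for the other where their exons overlap. LRRC55, a potassium channel accessory subunit gene 41.9 kb from APLNR, rose from 162 and 195 counts to 2300 and 2340 (3.77, SE 0.17, adjusted p = 7.63e-08). It too had at most 2 counts in any RKO library.

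NDRG1, a stress-responsive gene 134 kb from SLA, rose from 214 to 762 CPM (1.83, SE 0.25, adjusted p = 9.48e-05), and the sialyltransferase gene ST3GAL1, 352 kb from SLA, rose by 1.07 (SE 0.08, adjusted p = 2.40e-06). On the far side of SLA, PHF20L1 fell by 0.43 (SE 0.10, adjusted p = 0.00332). NMUR2, the neuromedin U receptor gene 1056 kb from GRIA1, rose from 9 and 12 counts to 90 and 126 (3.41, SE 0.58, adjusted p = 9.81e-04), while FAM114A2 and MFAP3 on the other side fell by 0.66 and 0.88 (SE 0.13 and 0.11). PCMTD2, 13.4 kb from MYT1, fell by 1.35 (SE 0.14, adjusted p = 1.73e-05), and the opioid-like receptor gene OPRL1 on the other side rose by 0.92 (SE 0.24, adjusted p = 0.00866), a call lost without shNT replicate 2 (0.0861) or shCYP1B1 replicate 2 (0.102). ASCL4, 511 kb from CMKLR1, rose from 0.0435 to 1.05 CPM (4.48, SE 1.25, adjusted p = 0.0139, edgeR), but did not pass with DESeq2 (0.427). The call was also lost without shNT replicate 1 (log2 fold change 3.55) or without shCYP1B1 replicate 1 (2.96). By contrast, POLR2B, which overlaps IGFBP7, stood at 144 and 156 CPM (adjusted p = 0.270), and AASS, 13.6 kb from PTPRZ1, at 38.0 and 39.0 CPM (adjusted p = 0.770), in shNT and shCYP1B1. PRMT7, which overlaps SMPD3, fell by 0.60 (SE 0.12), against the direction of SMPD3.

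**Figure D4:**
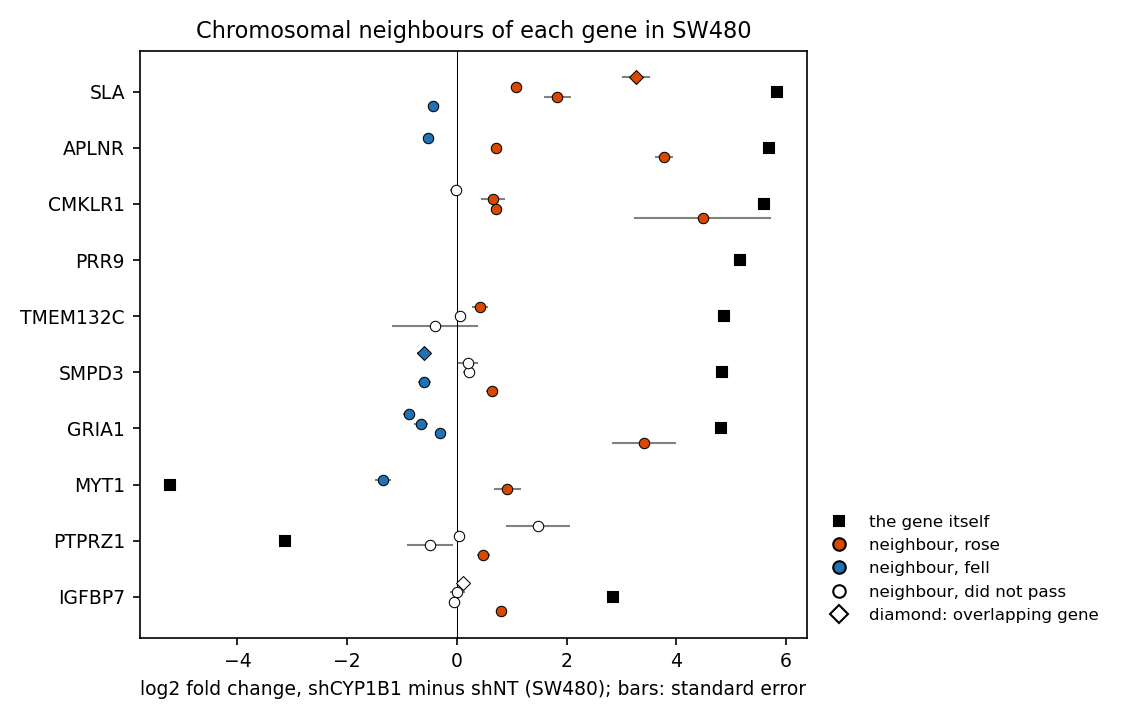
Log2 fold change in SW480 (shCYP1B1 minus shNT) of each of the 10 genes (black squares) and of its tested chromosomal neighbours (circles, with standard error bars; diamonds overlap the gene), coloured where they passed the test. Farthest to the right lie ASCL4 (511 kb from CMKLR1) at 4.48, with the wide SE of 1.25, and LRRC55 (41.9 kb from APLNR) at 3.77. NMUR2 (1056 kb from GRIA1) at 3.41 and TG over SLA at 3.26 follow. The neighbours of PRR9 had too few counts to test.

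Partners and relatives of the 10 genes were counted in 9 lists holding 147 genes that could be tested. In SW480 41 rose and 30 fell (27.9% and 20.4%, where 25.3% of all genes tested rose and 25.3% fell), and in RKO 22 rose and 14 fell (where 13.8% of all genes rose and 13.8% fell). The median log2 fold change over all genes was 0.00 in both lines. In RKO 11 list genes rose and 8 fell without control replicate 2, 26 that fell without overexpression replicate 1, and 9 that rose when the RKO libraries were fitted alone.

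Neither receptor's main ligand gene passed the test. Of 8 tested genes of the apelin and chemerin system, 3 rose and 1 fell in SW480 (median 0.06). APLN, which encodes apelin, stood at 11.02 ± 2.33 CPM in shNT and 10.7 ± 2.09 in shCYP1B1 (adjusted p = 0.922), and RARRES2, which encodes chemerin, at 6.49 ± 0.530 and 6.15 ± 1.26 CPM (adjusted p = 0.833; SD, n = 2, edgeR). APELA, the other apelin receptor ligand gene, had at most 1 count in any library, and the decoy chemerin receptor gene CCRL2 had at most 8 counts in SW480 but stood at 15.03 ± 0.277 CPM in RKO controls. The Gi subunit gene GNAI1 fell by 0.60 (SE 0.13) while GNAI2 and the arrestin gene ARRB2 rose by 0.35 and 0.49 (SE 0.07 and 0.09). GNAI3 rose by 0.30 (SE 0.08), a call lost without shNT replicate 2 (adjusted p = 0.0523).

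The kinases that SLA is known to act on differed from each other. Of 13 tested genes of this list 4 rose and 3 fell in SW480 (median -0.09). ZAP70, a T cell receptor kinase gene, rose from 9912 and 9810 counts to 23383 and 23404 (1.31, SE 0.09, adjusted p = 1.16e-06, edgeR) and was near 1 CPM or below in RKO. Its relative SYK fell from 16594 and 16341 counts to 3829 and 3933 (-2.02, SE 0.07, adjusted p = 1.38e-08). PAG1, a membrane anchor for the inhibitory kinase CSK, rose by 1.57 (SE 0.17) and YES1 by 0.56 (SE 0.07). SLA2, the close relative of SLA, had at most 2 counts in any library.

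Other sphingomyelinase genes fell where SMPD3 stood higher. SMPD1, the acid enzyme, fell by 0.54 (SE 0.13, adjusted p = 0.00420), SMPD2, another neutral enzyme, by 0.85 (SE 0.13, adjusted p = 2.57e-04) and SMPD4 by 0.42 (SE 0.13, adjusted p = 0.0195) in SW480, all by edgeR. SMPD4 did not pass when any 1 of the SW480 libraries was left out (adjusted p from 0.0887 to 0.136). Over the 31 tested genes of sphingomyelin and ceramide metabolism 8 rose and 11 fell (median -0.10). The ceramide kinase gene CERK and the sphingosine phosphate phosphatase gene SGPP2 each fell by 1.03 (SE 0.09), SPHK2 fell by 1.60 (SE 0.14), SPHK1 rose by 1.16 (SE 0.13) and the glucosylceramide synthase gene UGCG rose by 0.80 (SE 0.11). In RKO, UGCG fell by 0.81 (SE 0.11) and CERK rose by 0.63 (SE 0.09).

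GRIA1 was the only AMPA receptor subunit gene among the 3 in the table with more than 4 counts in a library: GRIA3 had at most 4 and GRIA4 at most 1. Of 21 tested genes of glutamate receptors and their partners 4 rose and 2 fell in SW480 (median 0.32). The postsynaptic scaffold gene DLG4 rose by 1.84 (SE 0.10, adjusted p = 3.27e-07), from 27.3 ± 3.47 to 97.8 ± 0.158 CPM, and the NMDA receptor subunit gene GRIN2D by 1.09 (SE 0.11). NSF, whose ATPase binds AMPA receptors, fell by 0.86 (SE 0.09), and the scaffold gene DLG3 rose by 0.39 (SE 0.10).

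Of 23 tested PTPRZ1 ligands, partners and related phosphatases 9 rose and 4 fell in SW480 (median 0.09). MDK, the midkine gene, fell by 0.88 (SE 0.09, adjusted p = 1.35e-05), from 85.6 ± 0.409 to 46.5 ± 2.20 CPM. The pleiotrophin gene PTN had 0 counts in all SW480 libraries and at most 11 in RKO. GIT1, a substrate of the phosphatase, rose by 1.24 (SE 0.07), the syndecan gene SDC4 fell by 0.84 (SE 0.07) and PTPRU rose by 0.76 (SE 0.08). Of 11 tested genes of MYT1 relatives and neuronal gene repressors 2 rose and 4 fell (median -0.06). REST, the main repressor of neuronal genes and a chromosomal neighbour of IGFBP7, stood at 44.8 ± 4.504 and 43.0 ± 0.893 CPM in SW480 (adjusted p = 0.588) and fell by 0.59 in RKO (SE 0.08, adjusted p = 6.12e-04). HDAC1 fell by 0.70 (SE 0.07) and RCOR2 and KDM1A rose by 1.04 and 0.41 (SE 0.20 and 0.07) in SW480. SIN3B fell by 0.32 (SE 0.08), but did not pass without shNT replicate 1 (adjusted p = 0.0716), shNT replicate 2 (0.0551) or shCYP1B1 replicate 1 (0.119).

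Of 15 tested genes of the insulin-like growth factor system 4 rose and 3 fell in SW480 (median 0.19). IGFBP2 and IGFBP4 rose by 0.76 and 0.80 (SE 0.10 and 0.09), to 240 ± 1.19 and 986 ± 5.99 CPM, and IGFBP3 fell by 0.65 (SE 0.12), with adjusted p = 0.0544 in limma on log2 of FPKM plus 0.1. IGFBP6 stood at 146 ± 10.5 and 152 ± 4.79 CPM (adjusted p = 0.644). The insulin receptor gene INSR rose by 1.03 (SE 0.09) and IGF2R fell by 0.74 (SE 0.11). IGFBP5 rose by 1.31 (SE 0.43, adjusted p = 0.0245), a call lost when any 1 of the SW480 libraries was left out (adjusted p from 0.0666 to 0.111).

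Relatives of TMEM132C were measured at unlike levels. TMEM132A stood at 96.6 ± 0.658 and 101 ± 2.84 CPM in SW480, TMEM132E at 1.62 ± 0.444 and 1.76 ± 0.663 CPM, TMEM132B was under 1 CPM and TMEM132D had at most 1 count, and 0 of the 3 tested were called (edgeR adjusted p from 0.536 to 0.870). Of 22 tested genes of the epidermal differentiation complex 7 rose and 2 fell in SW480 (median -0.04). Those named by the rule were S100 calcium-binding protein genes: S100A10 rose by 0.69 (SE 0.07), S100A11 by 0.45 (SE 0.08) and S100A16 by 0.39 (SE 0.06), and S100A2 fell by 1.13 (SE 0.11). The cornified envelope genes of the complex were low: LORICRIN had at most 2 counts, IVL at most 9, and SPRR1A and SPRR1B stood at 0.669 ± 0.308 and 1.12 ± 0.356 CPM in shCYP1B1 (adjusted p = 0.523 and 0.436).

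In RKO, where the 10 genes could not be followed, the same lists held genes that passed with CYP1B1 overexpression. The kinase gene CSK rose by 0.54 (SE 0.07) and FYN fell by 0.74 (SE 0.13), the ceramide desaturase gene DEGS1 rose by 0.78 (SE 0.11), and GRIN2D rose by 0.69 (SE 0.10). The syndecan gene SDC3 fell by 0.79 (SE 0.13) and SDC1 rose by 0.57 (SE 0.10). The histone methyltransferase gene EHMT2 rose by 0.89 (SE 0.11), S100A13 by 0.72 (SE 0.09) and S100A6 by 0.43 (SE 0.08). Calls for ARRB1 (0.37, SE 0.09), GNAI2 (0.24, SE 0.07), DLG4 (-0.40, SE 0.10), IGF1R (0.60, SE 0.14) and IGFBP2 (0.49, SE 0.12) were lost without control replicate 2, with adjusted p of 0.0521, 0.211, 0.0996, 0.119 and 0.129 (edgeR), and those of ARRB1 and DLG4 also without control replicate 1 (0.0761 and 0.0625).

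**Figure D5:**
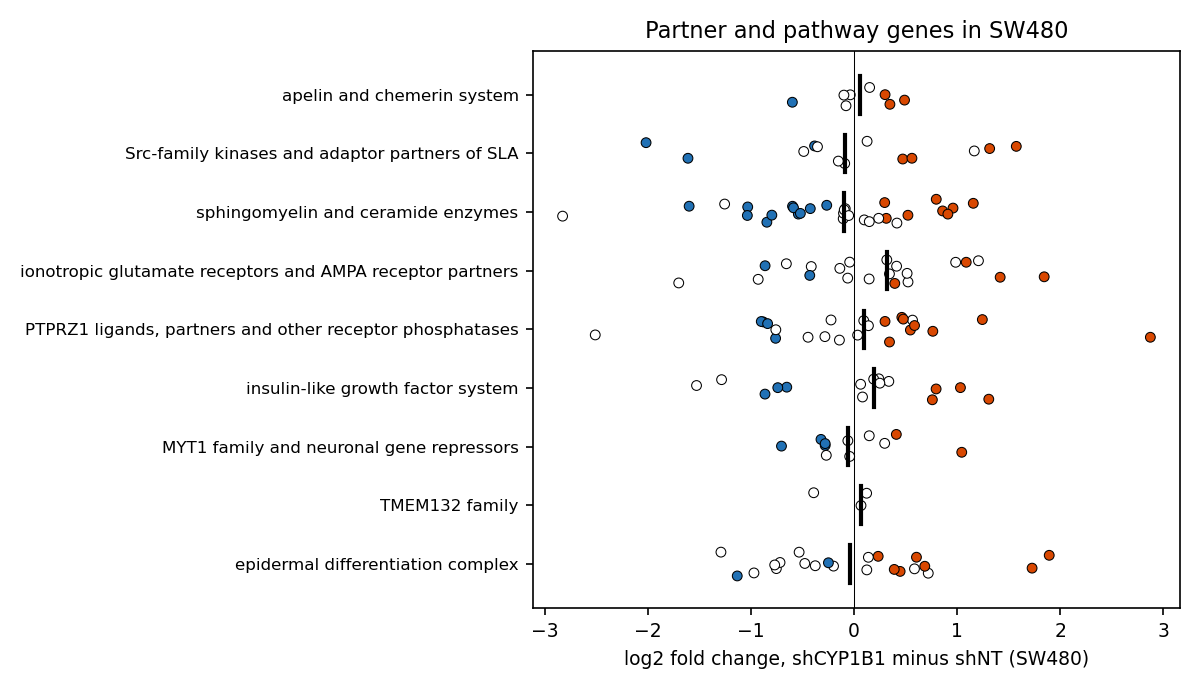
Log2 fold change in SW480 (shCYP1B1 minus shNT) of the tested genes in the 9 lists, with 1 circle per gene, orange where it rose, blue where it fell and white where it did not pass, and a black bar at the list median. The medians lie between -0.10 and 0.32, and DLG4 at 1.84 and SYK at -2.02 lie far from their lists' medians.

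Markers of other cell types were read beside these values. Among all genes tested in SW480, 25.3% rose and 25.3% fell. The 7 tested of 12 immune markers gave 3 that rose and 0 that fell in SW480, and their summed level over all 12 was 11.7 and 13.6 CPM in shNT and 28.96 and 29.32 CPM in shCYP1B1. The lysosomal gene CD68 carried the rise of this sum, from 5.36 and 6.87 CPM to 22.5 and 24.5 CPM (1.94, SE 0.11, adjusted p = 3.63e-07, edgeR). It stood at 732 ± 58.2 CPM in RKO controls and 673 ± 15.7 CPM with overexpression. The T cell receptor complex genes CD3D and CD3E rose from a low level, with 10 and 8 counts summed over the shNT libraries and 60 and 47 over the shCYP1B1 libraries (2.62 and 2.59, SE 0.83 and 0.84, adjusted p = 0.0227 and 0.0281). LYZ stood at 1.65 ± 0.0354 and 0.669 ± 0.351 CPM (adjusted p = 0.0906) and CD14 at 2.72 ± 0.00909 and 1.97 ± 0.0223 CPM (adjusted p = 0.447), and PTPRC, the pan-leukocyte marker, had at most 2 counts in a SW480 library. The 19 neural and glial markers in the table summed to 352 and 346 CPM in shNT and 351 and 349 CPM in shCYP1B1. Among 13 tested, 3 rose (TUBB3, SNAP25 and MBP) and 3 fell (SOX2, NES and CHGA). NES made up most of the sum, with means of 206.5 CPM in shNT and 178.5 CPM in shCYP1B1, while TUBB3 stood at 61.1 and 77.3 CPM. The level sum therefore does not mean that each marker was unchanged. The 8 endothelial markers summed to between 2.50 and 3.24 CPM in SW480. The 10 fibroblast and smooth muscle markers summed to 33.2 and 33.8 CPM in shNT and to 51.2 and 55.7 CPM in shCYP1B1. Of 9 tested, 3 rose (COL1A1, ACTA2 and TAGLN) and 0 fell, and COL1A1 and ACTA2 made up most of the sum. The part of the immune and fibroblast markers in the results for the 10 genes was not tested. Of 6 keratinocyte markers tested 0 rose and 1 fell (median -0.10). This was KRT5, which fell from 3129 ± 28.01 to 1827 ± 7.19 CPM and made up nearly all of the list's summed level, while KRT10 stood at 20.9 ± 1.71 and 20.3 ± 0.306 CPM and KRT14 at 5.31 ± 1.96 and 5.94 ± 0.0243 CPM.

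Likeness of pattern was measured as the Euclidean distance between profiles of log2(CPM + 0.5) over the 8 libraries, as a description. Only genes that passed the filter on low counts entered, and those with no symbol among the reference gene names were skipped. The closest pair within the set was GRIA1 and TMEM132C (distance 0.32), and APLNR was next to both (0.71 and 0.79). The nearest genes of SLA were SMPD3 (1.30) and HSD11B1 (1.64), a cortisol-regenerating enzyme gene. CMKLR1 was nearest to TLR9 (0.73), a DNA-sensing receptor gene at 0.304 ± 0.103 CPM in shNT and 6.07 ± 0.467 in shCYP1B1, and then to GRIA1 (0.77). PRR9 was nearest to LRRC55 (1.34), the neighbour of APLNR, and to the chemokine gene CXCL14 (2.06), which stood at 3.89 ± 0.156 and 41.6 ± 0.0631 CPM. SMPD3 was nearest to SLA (1.30) and then to SPTSSB (1.87), a regulatory subunit gene of ceramide synthesis, at 2.24 ± 0.136 and 18.6 ± 2.68 CPM.

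The genes nearest to those that stood lower were themselves nearly absent from RKO. MYT1 was nearest to the chemokine gene CCL20 (0.65), at 4.495 ± 0.701 CPM in shNT and 0.271 ± 0.340 in shCYP1B1, and to GPX2 (0.78), a gastrointestinal glutathione peroxidase gene, at 4.02 ± 0.709 and 0.242 ± 0.0401 CPM. PTPRZ1 was nearest to DPYSL3 (0.66), a neuronal growth cone gene, at 17.1 ± 0.507 and 2.56 ± 0.721 CPM, and to KRT75 (0.71). IGFBP7 was nearest to IRAG1 (1.45) and to the amino acid transporter gene SLC7A7 (1.46), at 24.7 ± 0.490 and 106 ± 2.98 CPM. All libraries enter each distance, so genes low in RKO and different in SW480 are close by construction.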

How the data were processed

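Total RNA was made into 8 libraries with a stranded mRNA kit, per the labels' protocols. The authors deposited raw read counts per gene and FPKM values for the same genes. The deposited FPKM equal the count divided by 1 length per gene and by the library total, within 0.1 percent for all 16829 genes. The submitters' processing notes name GRCh38.p13. No aligner, counter, annotation or strand setting was found in the sources used.

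Groups and replicate numbers came from the sample titles. Counts were filtered with filterByExpr (minimum count 10, minimum total 15), scaled with TMM and fitted with edgeR 4.0.16 quasi-likelihood models (R 4.3.3) with 1 coefficient per group over all 8 libraries, on 4 residual degrees of freedom. Adjusted p-values are Benjamini-Hochberg over all 14157 genes tested. A pair of groups of 2 cannot give an exact permutation p below 0.333, so none was run. DESeq2 1.42.0 and limma 3.58.1 served as alternatives. Intervals are exact binomial on the split of counts. The same steps were tested on simulated counts.

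The 10 genes and the lists were chosen with earlier results of these data known. The text names the 10 genes, CYP1B1, the 2 nearest profiles of each, fixed relatives, and from each list up to 4 genes with the smallest p in SW480 and 2 in RKO that passed with separate groups and at least 5 CPM. Chromosomal neighbours were added after the data were seen, as were the marker genes quoted singly. Promoter windows came from RefSeq and positions from GENCODE release 29, which held 97.3% of the symbols in the file. The lines received opposite manipulations, so no contrast is shared between them. Sequences before the starts of SLA, APLNR, SMPD3 and IGFBP7 were not used here.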

Additional observations from a re-analysis of the deposited data

How the results depend on the processing

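Of 90 called fold changes of neighbours and of the list genes picked for naming, 64 kept direction and call under every alternative. Each had up to 17 alternatives, 8 of which leave out 1 library, and none reversed. A missing adjusted p was counted as a call kept. Most of these list genes were picked for the smallest p, so the share may be too high for all called list genes. The members were chosen as low in RKO, so their 0 calls there under each alternative say nothing about stability, and with the RKO libraries alone none passed the filter. The adjusted p of IGFBP7 in RKO ran from 0.0640 without RKO control replicate 1 to 0.861 without RKO control replicate 2. A group left with 1 library borrows its spread from the other groups.

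The numbers of genes that rose and fell in RKO, 1959 and 1948, were 1133 and 1161 with each line fitted alone, and ranged from 891 to 2702 and from 893 to 2927 with 1 library left out; the share of genes called in RKO, 27.6%, was 15.5% without control replicate 1 and 12.3% without control replicate 2. For list genes in RKO they were 9 and 11 with each line alone, and ranged from 11 to 29 and from 8 to 26 with 1 library left out. The numbers that switched on and off in SW480, 21 and 13, were 9 and 2 with a low limit of 0.5 CPM, 125 and 90 with a high limit of 2 CPM, and 10 and 7 on FPKM, and ranged from 20 to 23 and from 12 to 15 with 1 library left out. On log2(FPKM + 1) the members' fold changes shrank to between -1.56 and 4.66, since the offset exceeds many of the levels. Counts in RKO limit every statement on the members there.

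The replicate number as a block left 3810 genes called in RKO and 6960 in SW480, and 0 members in RKO. Same-numbered libraries did not deviate together (r = -0.033 in RKO and -0.005 in SW480, across genes), so the numbers are not taken as pairs.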
